A study of Mus musculus with 16 samples.

Results

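The immunity-related GTPases (IRG proteins) were read in the RNA-seq of bone marrow-derived dendritic cells (BMDCs) through 7 genes, chosen by name: Irgm1, Irgm2, Igtp, Iigp1, Ifi47, Tgtp1 and Tgtp2. All 7 were among the 23356 genes of the table, and all 7 had at least 1 FPKM in a condition. The BMDCs were grown for 6 days with GM-CSF and IL-4 from the marrow of C57BL/6 wild-type mice and of Tmem173-/-, Irf1-/- and Irf3/7-/- mice, the last lacking both Irf3 and Irf7. Per the study's methods the mice were sex-matched and 6 to 12 weeks old. Each genotype was left untreated or stimulated for 18 h with c-di-GMP, a bacterial cyclic dinucleotide that binds STING, the protein encoded by Tmem173. The sample labels give the dose as 25 μg/ml, and figure legends of the study give a higher one. There were 2 samples for each of the 8 conditions, 16 in all. They were floating and loosely attached cells of whole cultures, and no sort of dendritic cells was stated for these libraries. FPKM count the fragments of a transcript per unit of its length and of the library's mapped fragments, so levels of genes of unequal length can be set side by side. The authors' software combined the samples of a condition into 1 FPKM with a confidence interval, so the values below have no spread between replicates and no p-value.

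IRG proteins are interferon-inducible GTPases of cell-autonomous immunity, which gather on the vacuoles of pathogens such as Toxoplasma gondii and help to break them open. Irgm1, Irgm2 and Igtp (also called Irgm3) form the regulatory GMS group, named after a residue change in the nucleotide-binding loop. They sit on the cell's own membranes and hold the effectors inactive there. Iigp1 (Irga6), Ifi47 (Irgd), Tgtp1 (Irgb6) and its near copy Tgtp2 belong to the effector GKS group, which loads onto the vacuole. Their genes are classical targets of IFN-γ, whose response runs through GAS elements and, by way of IRF1, through interferon-stimulated response elements (ISRE).

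A difference was called when log2(FPKM + 0.1) changed by more than 2-fold, the authors' intervals of both conditions did not overlap, at least 1 of the conditions reached 1 FPKM, and the status was OK in both. Every member had the status OK in all 8 conditions. Among the 4710 genes that had 10 FPKM or more throughout, the bounds lay at a median of 25.2% to 25.7% above or below the value. FPKM do not give the depth of a sample. Of the targeted genes, Tmem173 had 8.97 and 7.49 FPKM in untreated and treated Tmem173-/- BMDCs, whereas wild-type BMDCs had 103 and 118 FPKM. Irf7 had 1.07 and 4.97 FPKM in Irf3/7-/- and 15.2 and 687 FPKM in wild-type BMDCs. Irf1 had 25.9 and 116 FPKM in Irf1-/- and 149 and 245 FPKM in wild-type BMDCs. Irf3 had 7.74 and 20.2 FPKM in Irf3/7-/- and 19.9 and 15.8 FPKM in wild-type BMDCs, so its level was not lower in treated Irf3/7-/- BMDCs. A whole-gene value includes any exons that the deletion left in place, so for Irf1 and Irf3 it does not check the labels. All 7 markers of dendritic cells had at least 1 FPKM in every condition, with summed levels from 4532 to 7538 FPKM, of which Cd74 made up at least 3336 FPKM. Within this list H2-Ab1 was called lower in Irf1-/- than in wild-type BMDCs, at 278 against 650.1 FPKM untreated and 331 against 890.2 FPKM treated. After c-di-GMP, Ccr7 and Cd86 were called lower and Itgax higher (328 against 135 FPKM) when Tmem173-/- BMDCs were set against wild-type ones. Without stimulation Ccr7 was also called lower there, at 130 against 265 FPKM. Flt3 was called higher in Irf3/7-/- BMDCs given c-di-GMP, at 2.75 FPKM against 1.17 FPKM in wild-type BMDCs. These markers were picked out after their values were seen.

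The sequences just upstream of the members' start sites were read first, because the results below differ between members in the absence of IRF1. The promoter windows held 250 bases before and 50 bases after each annotated start site, and came from RefSeq on GRCm38.p6. A window was found for 6 of the 7 members, all but Iigp1. Shown are the 100 bases before the start site, 5′ to 3′ on the strand of the gene, with matches to either motif in capitals. The ISRE core was searched as GAAA, any 2 bases and GAAA, and the GAS as TTCNNNGAA, each on both strands.
Irgm1, chr11:48871421-48871520, minus strand: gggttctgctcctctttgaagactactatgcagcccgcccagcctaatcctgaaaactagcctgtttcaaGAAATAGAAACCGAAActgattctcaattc
Irgm2, chr11:58214877-58214976, plus strand: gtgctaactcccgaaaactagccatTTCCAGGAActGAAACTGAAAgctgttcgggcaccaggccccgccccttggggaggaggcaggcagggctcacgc
Igtp, chr11:58199456-58199555, plus strand: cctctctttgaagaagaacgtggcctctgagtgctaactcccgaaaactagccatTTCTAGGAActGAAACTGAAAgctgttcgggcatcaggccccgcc
Tgtp1, chr11:48992247-48992346, minus strand: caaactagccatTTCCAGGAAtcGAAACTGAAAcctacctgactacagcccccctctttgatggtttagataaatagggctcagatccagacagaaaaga
Tgtp2, chr11:49064213-49064312, minus strand: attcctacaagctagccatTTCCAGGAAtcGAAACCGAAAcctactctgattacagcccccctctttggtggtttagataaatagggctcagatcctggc
Ifi47, chr11:49076487-49076586, plus strand: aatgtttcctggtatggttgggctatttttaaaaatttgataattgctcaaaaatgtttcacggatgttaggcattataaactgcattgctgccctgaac

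In Irgm2, Igtp, Tgtp1 and Tgtp2 a GAS was followed, 2 bases further on, by an ISRE core on the same strand. The first base of the GAS lay 75 bases before the start site in Irgm2, 45 in Igtp, 88 in Tgtp1 and 81 in Tgtp2. The arrangement was noticed in these windows and then counted, so it is a description. Of the 32851 promoter windows of the table, 5 held it, those of these 4 genes and of Gm12185, a further IRG family gene. The ISRE core alone was present in 3.44% of all windows and in 5 of the 6 members with a window, and the GAS alone in 8.30% of all windows and in 4 of the 6. The members are related in sequence, so these windows are not independent of each other. Irgm2 and Igtp shared an identical run of 55 bases in the 250 bases upstream, and Tgtp1 and Tgtp2 one of 27 bases.

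Irgm1 differed from the other members of its group. Its window held 2 overlapping ISRE cores, starting 30 and 24 bases before the start site, and no GAS. The window of Ifi47 held neither motif, which says only that these letters were not found around this 1 annotated start site. The paired motifs were defined by their spacing, and the plot of motif positions shows that their distance to the start site varied. Gm12250, a further IRG gene, had both motifs without this spacing. Its GAS began 61 bases before the start site, and its ISRE cores, on the other strand, lay from 46 to 37 and from 91 to 82 bases before it.

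**Figure D1:**
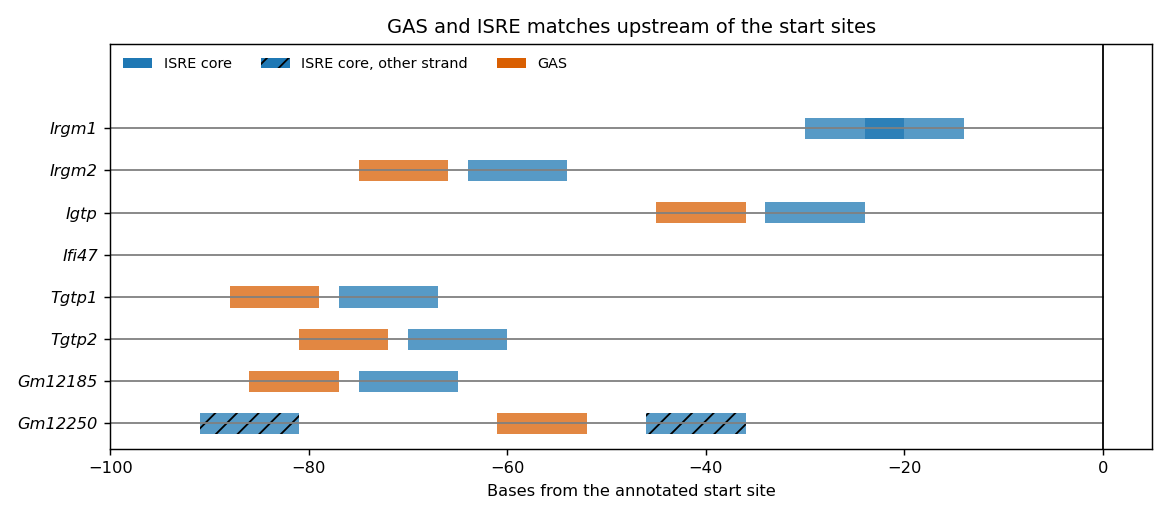
Matches to the ISRE core (blue; hatched where the match is on the other strand) and to the GAS (orange) in the 100 bases before the annotated start site, in bases from that site, for 6 members and for the further IRG genes Gm12185 and Gm12250. Irgm2, Igtp, Tgtp1, Tgtp2 and Gm12185 carry a GAS and an ISRE core 2 bases apart, Irgm1 has 2 overlapping ISRE cores, and Ifi47 has no match.

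Without stimulation, wild-type BMDCs already carried transcripts of all 7 members. Irgm1, which is needed for control of mycobacteria and for autophagy, had 112 FPKM (authors' interval, 86.3 to 138). Ifi47 had 102 FPKM (71.0 to 132), Igtp 57.3 FPKM (44.3 to 70.3) and Iigp1 45.9 FPKM (34.7 to 57.2). Irgm2 had 28.0 FPKM (21.3 to 34.5), Tgtp1 23.4 FPKM (18.0 to 28.8) and Tgtp2 13.3 FPKM (6.44 to 20.2). In this order the interval of Ifi47 was separate from that of Igtp and the interval of Iigp1 was separate from that of Irgm2, while the other neighbours overlapped. The highest member was 8.43-fold above the lowest.

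With c-di-GMP the level of every member in wild-type BMDCs was higher, and 6 of the 7 were called higher, against 10.5% of the 11201 genes tested. The members' median log2 change was 1.33, and that of all genes tested was 0.00. Among the regulators, Irgm1 rose to 304 FPKM (233 to 375), Igtp to 156 FPKM (120 to 192) and Irgm2 to 67.8 FPKM (51.8 to 83.9), log2 changes of 1.44, 1.45 and 1.28. Among the effectors, Iigp1 rose most, to 161 FPKM (123 to 200), a log2 change of 1.81. Ifi47 rose to 256 FPKM (180 to 332) and Tgtp1 to 49.7 FPKM (38.3 to 61.1), log2 changes of 1.33 and 1.08. Tgtp2 was at 32.7 FPKM (14.9 to 50.4), a log2 change of 1.29 that was not called because its wide intervals overlapped.

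The values of Tgtp1 and Tgtp2 cannot be taken as separate measurements, and the counts of members include both. Of the 35-base words of the Tgtp1 transcript, the length of the reads, 92.1% were also present in Tgtp2. The corresponding share was 14.2% for Igtp against Irgm2 and 7.32% for Iigp1 against Gm4951, another IRG gene. The FPKM and the bounds of Tgtp1 and Tgtp2 were also added, a step chosen after seeing the data. In wild-type BMDCs the sum was 36.7 FPKM (24.4 to 49.0) before stimulation. It rose to 82.4 FPKM (53.2 to 112) with c-di-GMP, which was called higher. Within Irf1-/- BMDCs the sum was also called higher, with a log2 change of 4.24. Within Irf3/7-/- BMDCs its change of 0.97 was not called, and the intervals overlapped. In treated Irf1-/- BMDCs the sum was 13.7 FPKM (6.79 to 20.7). That was called lower than in treated wild-type and treated Irf3/7-/- BMDCs, with log2 differences of -2.58 and -2.32. In the table, Ifi47 and Tgtp2 are listed with the same locus, which also covers Olfr56 and Olfr1396. Olfr56 had at most 7.77 FPKM in the 8 conditions and Olfr1396 at most 0.238 FPKM. Whether Cuffdiff was run with the strand of the reads is not given in the sources used here.

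**Figure D2:**
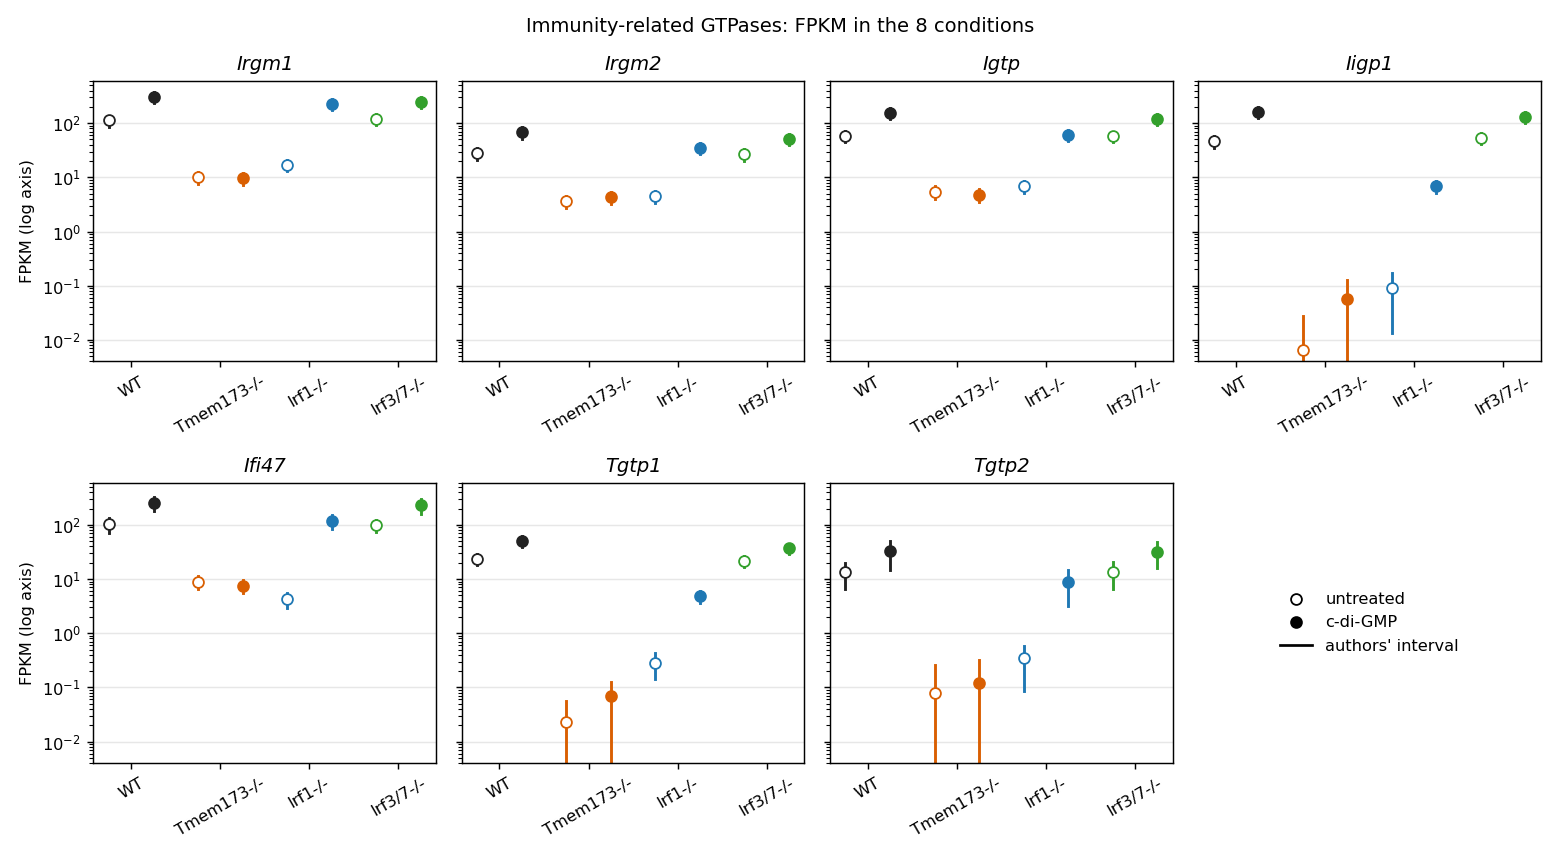
FPKM of each member on a log axis in untreated (open) and c-di-GMP-treated (filled) BMDCs of the 4 genotypes, 1 combined value per condition, with the authors' confidence interval as a bar; bars of intervals that begin at 0 run to the bottom of the panel. In Tmem173-/- BMDCs all 7 members lie at 10.0 FPKM or below with and without c-di-GMP, and in Irf1-/- BMDCs they start low and rise.

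In Tmem173-/- BMDCs all 7 members were low, and none was called different with c-di-GMP. Irgm1 was at 10.0 FPKM (7.55 to 12.5) without and 9.60 FPKM (7.25 to 11.9) with c-di-GMP. Igtp was at 5.45 and 4.81 FPKM, Irgm2 at 3.61 and 4.34 FPKM, and Ifi47 at 8.95 and 7.47 FPKM. The intervals of the untreated and treated cells overlapped for each of them. Of the other effectors almost nothing was listed: Iigp1 was at 0.00647 and 0.0574 FPKM, Tgtp1 at 0.0235 and 0.0706 FPKM, and Tgtp2 at 0.0777 and 0.123 FPKM, and each of these intervals began at 0. These 3 genes were below the minimum for the comparison within the genotype. Of the 4 that were tested none was called, and 0.0552% of the 10867 genes tested were called in either direction. The log2 changes of the 4 lay between -0.26 for Ifi47 and 0.26 for Irgm2, which is -19.3% to 20.4% of their changes in wild-type BMDCs.

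The difference from wild-type BMDCs was present before stimulation. In untreated Tmem173-/- BMDCs, 7 of 7 members were called lower than in untreated wild-type BMDCs, against 5.95% of the genes tested. Irgm1, Igtp, Irgm2 and Ifi47 lay at 8.95%, 9.51%, 12.9% and 8.78% of the wild-type level. Iigp1 had at least 34.7 FPKM in the wild-type interval and at most 0.0276 FPKM in the Tmem173-/- interval, bounds that lie 1258-fold apart. For Tgtp1 the bounds lay 317-fold apart. After c-di-GMP, again 7 of 7 members were called lower, against 13.5% of the genes tested, with Irgm1 at 3.16% of the wild-type level, Igtp at 3.08%, Irgm2 at 6.40% and Ifi47 at 2.91%. The treated bounds of Iigp1 lay 954-fold apart and those of Tgtp1 301-fold apart.

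The regulators and Ifi47 thus kept a low level in Tmem173-/- BMDCs, of 3.61 FPKM or more, whereas Iigp1, Tgtp1 and Tgtp2 did not reach 0.2 FPKM.

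In Irf1-/- BMDCs all 7 members were low without stimulation and all 7 rose with c-di-GMP. In the untreated cells 7 of 7 were called lower than in untreated wild-type BMDCs, against 3.52% of the genes tested. Irgm2, Irgm1 and Igtp were at 16.2%, 15.0% and 11.9% of the wild-type level. Ifi47 was at 4.13%, with 4.21 FPKM (2.98 to 5.44). Tgtp2 was at 0.343 FPKM (0.0847 to 0.593), Tgtp1 at 0.288 FPKM (0.142 to 0.425) and Iigp1 at 0.0896 FPKM (0.0134 to 0.171). Each of the effectors thus retained a smaller share of its wild-type level than each of the regulators.

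With c-di-GMP, 7 of 7 members were called higher within Irf1-/- BMDCs, against 9.67% of the 11164 genes tested, and their median log2 change was 3.76. With a minimum of 5 FPKM the call of Tgtp1 was lost, which left 6. Irgm1, at 16.9 FPKM (13.0 to 20.7) before stimulation, rose by 3.76 on the log2 scale and reached 230 FPKM (176 to 283). Ifi47 rose to 120 FPKM (84.5 to 155), Igtp from 6.84 to 60.6 FPKM (46.4 to 74.8), and Irgm2 from 4.53 to 35.3 FPKM (27.1 to 43.4), log2 changes of 4.80, 3.13 and 2.94. Iigp1 rose to 6.89 FPKM (5.22 to 8.56), Tgtp2 to 8.90 FPKM (3.16 to 14.6) and Tgtp1 to 4.84 FPKM (3.62 to 6.04). For each member the log2 change was larger in Irf1-/- than in wild-type BMDCs, between 216% of it for Igtp and 361% for Ifi47. The shares of Iigp1, Tgtp1 and Tgtp2 depend on the 0.1 FPKM that was added, since their untreated levels were near or below it. The difference between the genotypes in these changes was not tested, since there is 1 value per condition.

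The members did not reach the same level relative to treated wild-type BMDCs. Irgm1 reached 75.5% of it, and the intervals of 230 FPKM (176 to 283) and 304 FPKM (233 to 375) overlapped. Irgm2 reached 52.0%, with intervals that did not overlap and a log2 difference of -0.94 that fell short of the 2-fold threshold. Ifi47 reached 46.9%, Igtp 38.8%, Tgtp2 27.2%, Tgtp1 9.73% and Iigp1 4.28%. These last 5 were called lower than in treated wild-type BMDCs, against 4.91% of the 11079 genes tested. The log2 differences were -4.53 for Iigp1, -3.34 for Tgtp1 and -1.86 for Tgtp2, and for Igtp and Ifi47 they were -1.37 and -1.09. The upper bound of Tgtp2 in Irf1-/- BMDCs, 14.6 FPKM, lay just below its lower bound of 14.9 FPKM in wild-type BMDCs.

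Set against wild-type BMDCs that had not been stimulated, treated Irf1-/- BMDCs had 205% of the level of Irgm1, 126% of Irgm2, 118% of Ifi47 and 106% of Igtp. The intervals overlapped for Irgm2, Ifi47 and Igtp and were separate for Irgm1. Iigp1, at 15.0%, and Tgtp1, at 20.7%, stayed below even the unstimulated wild-type level, with separate intervals, while Tgtp2, at 66.9%, overlapped it. The bar chart of the Irf1-/- levels shows this order. Of the members with a window, Irgm1, with 2 ISRE cores and no GAS, had the highest share of the treated wild-type level. The 4 with the paired motifs ranged from 9.73% for Tgtp1 to 52.0% for Irgm2, and among them Tgtp1 and Tgtp2 are not separate measurements. Ifi47, with neither motif, lay within that range at 46.9%. A link between the motifs and these shares was not tested.

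**Figure D3:**
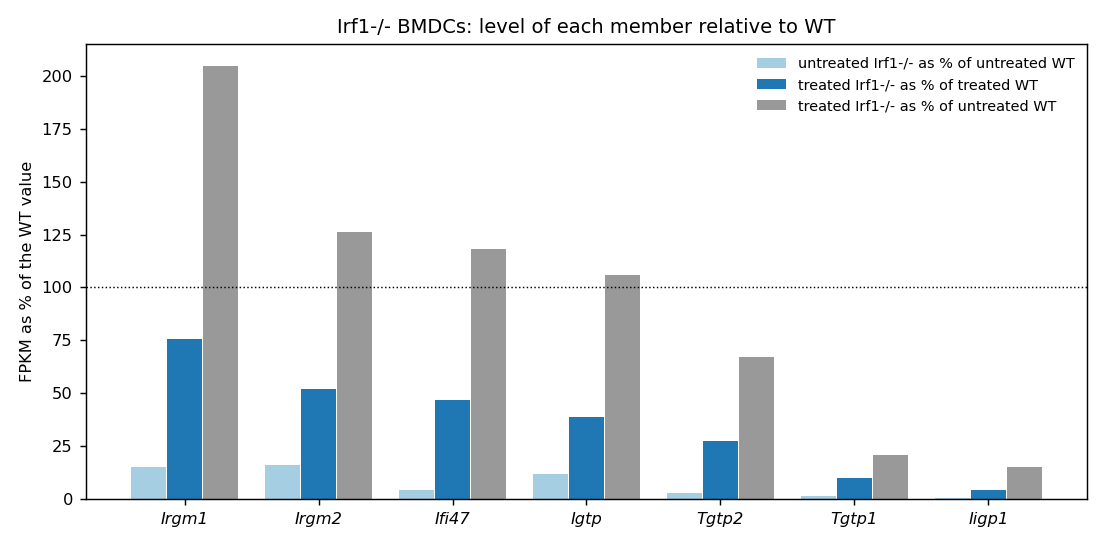
FPKM of each member in Irf1-/- BMDCs as a percentage of a wild-type value, on a linear axis from 0, in untreated cells (light blue, against untreated wild-type), in treated cells (blue, against treated wild-type) and in treated cells against untreated wild-type (grey). Treated Irf1-/- BMDCs range from 75.5% of the treated wild-type level for Irgm1 to 4.28% for Iigp1.

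In Irf3/7-/- BMDCs the members stayed close to wild-type levels. Without stimulation none of the 7 was called different from wild-type BMDCs, against 2.04% of the genes tested, and their levels were between 93.4% of wild-type for Tgtp1 and 118% for Iigp1. With c-di-GMP, Irgm1 was at 248 FPKM (190 to 306), Igtp at 121 FPKM (92.7 to 149) and Irgm2 at 51.9 FPKM (39.4 to 64.2). Iigp1 was at 132 FPKM (102 to 163), Ifi47 at 231 FPKM (161 to 301), Tgtp1 at 36.8 FPKM (28.4 to 45.1) and Tgtp2 at 32.3 FPKM (16.3 to 48.2). These were 73.9% to 98.8% of treated wild-type levels, all with overlapping intervals, and none was called, against 7.3% of the genes tested in either direction. The intervals leave room for differences: the bounds of Irgm1 in Irf3/7-/- and wild-type BMDCs allow a ratio between 0.507 and 1.31, and those of Tgtp2 between 0.323 and 3.23.

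Within Irf3/7-/- BMDCs, 4 of the 7 members were called higher with c-di-GMP, against 10.2% of the 11283 genes tested. They were Iigp1, Ifi47 and Igtp, with log2 changes of 1.28, 1.21 and 1.07, and Irgm1, which rose slightly less than Igtp. The changes of Irgm2 and Tgtp1 were 0.96 and 0.75, below 2-fold, with separate intervals, and that of Tgtp2 was 1.26 with overlapping intervals. The 7 changes were between 68.9% and 97.6% of those in wild-type BMDCs, with a median of 74.2%.

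Compared directly after c-di-GMP, 3 of the 7 members were called lower in Irf1-/- than in Irf3/7-/- BMDCs, against 6.62% of the 11235 genes tested. They were Iigp1, Tgtp1 and Tgtp2, with log2 differences of -4.25, -2.90 and -1.85. The difference of Igtp was -0.99 and that of Ifi47 -0.94, both with separate intervals and under the 2-fold threshold. Irgm2 and Irgm1, with differences of -0.55 and -0.11, overlapped. The comparisons above share conditions with each other, so their counts are not independent.

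**Figure D4:**
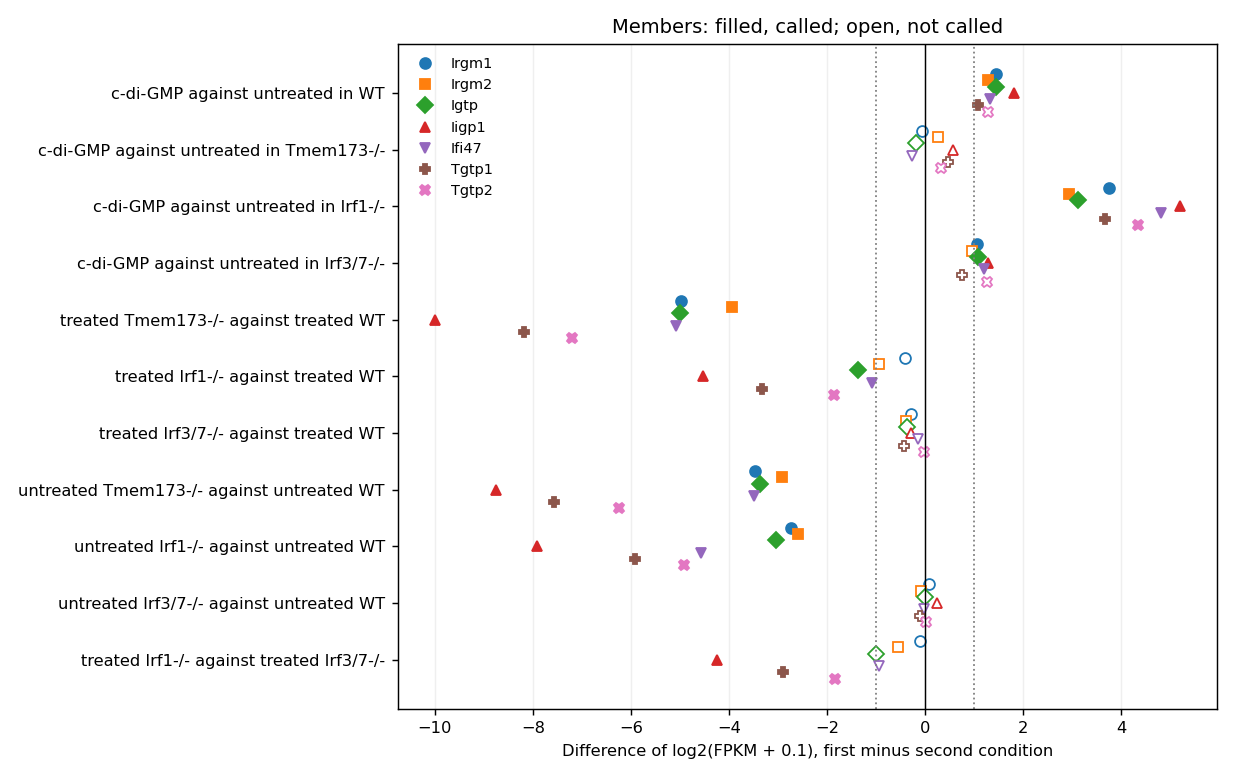
Differences of log2(FPKM + 0.1) of the 7 members in 11 comparisons, first minus second condition named, with the 2-fold threshold as dotted lines and called differences filled. The members lie between -0.44 and 0.24 where Irf3/7-/- is compared with wild-type BMDCs, and in the Irf1-/- comparison with treated wild-type BMDCs they spread from -0.41 for Irgm1 to -4.53 for Iigp1.

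Over the 8 conditions the members had similar profiles. Pearson's r of log2(FPKM + 0.1) between pairs of members lay between 0.939, for Irgm1 and Iigp1, and 0.996, for Irgm2 and Igtp. The 8 points are conditions of the same experiment and include 3 with all members low, so r is a description. The mean of the members' standardised profiles was compared with all 7382 genes that had at least 10 FPKM in a condition, members and listed genes included. Of the 10 most similar genes outside the lists used here, Lag3 had r = 0.996, Batf2 0.991, Fam26f 0.988, Tagap 0.988 and Tnfsf10 0.988. The next 5 were Psmb9, Tap1, Cxcl9, H2-Q7 and Rmdn3, with r from 0.985 to 0.974. Cxcl9, a chemokine, went from 21.7 to 52.2 FPKM in wild-type and from 0.947 to 15.4 FPKM in Irf1-/- BMDCs, and stayed at 0.0386 and 0.0470 FPKM in Tmem173-/- BMDCs.

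The interferons themselves followed another order. Ifng, the main inducer of this family, had 34.6 FPKM (23.4 to 45.0) in untreated and 299 FPKM (205 to 367) in treated wild-type BMDCs, and was listed at 0 in both Tmem173-/- conditions. In Irf1-/- BMDCs it was at 1.26 and 25.5 FPKM. In treated Irf3/7-/- BMDCs it reached 1155 FPKM (777 to 1421) and was called higher than in treated wild-type BMDCs, with a log2 difference of 1.95, while no member was called higher there. Ifnb1, encoding IFN-β, was listed at 0 in untreated wild-type, Irf3/7-/- and Tmem173-/- BMDCs. In treated cells Ifnb1 had 2.93 FPKM in wild-type, 3.53 FPKM in Irf1-/-, 22.6 FPKM in Irf3/7-/- and 0.0474 FPKM in Tmem173-/- BMDCs.

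Markers of T and NK cells were lower in Tmem173-/- and Irf1-/- than in wild-type BMDCs, as the members were, and in treated Irf3/7-/- BMDCs they were above wild-type, where the members were not. The list held 11 genes. Its summed level was 779 and 745 FPKM in untreated and treated wild-type BMDCs, with 10 and 9 genes at 1 FPKM or more, and 836 and 2428 FPKM in Irf3/7-/- BMDCs, again with 10 and 9. It was 24.7 and 40.3 FPKM in Irf1-/- BMDCs, with 5 genes at 1 FPKM or more in both. Tmem173-/- BMDCs had sums of 3.44 and 3.08 FPKM, with 1 gene at 1 FPKM or more, Gzma listed at 0 in both conditions and Ncr1 in the untreated one. Without stimulation, 10 of 10 genes tested were called lower than in wild-type BMDCs in Tmem173-/- and in Irf1-/- BMDCs. Of all genes, 5.95% and 3.52% were. After c-di-GMP, 9 of 9 were called lower in Tmem173-/- and 7 of 9 in Irf1-/- BMDCs, beside 13.5% and 4.91% of all genes. In treated Irf3/7-/- BMDCs 9 of 9 were called higher, beside 517 of all 11209 genes tested. The list's part in the differences between genotypes was not tested. In bulk RNA, fewer cells of a type and less RNA per cell cannot be told apart. From untreated to treated cells the sum of the members went from 382 to 1029 FPKM in wild-type and from 33.2 to 467 FPKM in Irf1-/- BMDCs. In wild-type BMDCs most of the list's sum was Gzma (349 and 329 FPKM) and Gzmb (321 and 336 FPKM). The log2 changes of its 10 tested genes there had a median of -0.31. They ranged from -2.54 for Klrb1c, which was called lower, beside 1116 of all 11201 genes tested, to 0.07. Within Irf1-/- BMDCs the list's 6 tested genes had a median log2 change of 0.74. Lck was called higher there, beside 9.67% of all genes. Within Irf3/7-/- BMDCs the median of its 10 tested genes was 0.86. Gzma, Gzmb and Prf1 were called higher there, beside 10.2% of all genes, and Klrb1c lower, beside 866 of 11283. The list's part in the rise of the members was not tested. The 7 neutrophil markers summed to 20003 and 14533 FPKM in Tmem173-/- BMDCs and to between 1407 and 4015 FPKM in the other conditions. S100a8 and S100a9 made up most of each sum, with 10351 and 8336 FPKM in untreated Tmem173-/- BMDCs. S100a8 was listed above its own interval in every condition, in untreated Tmem173-/- BMDCs with bounds of 5199 and 10137 FPKM, so these sums are rough. The 6 macrophage markers found summed to 28.96 FPKM in untreated Irf1-/- BMDCs, to 107 FPKM in untreated wild-type BMDCs and to at most 175 FPKM elsewhere. In untreated Irf1-/- BMDCs 5 of the 6 were called lower than in wild-type BMDCs, beside 3.52% of all genes tested. In treated Irf1-/- BMDCs 3 of the 6 were called lower, beside 4.91% of all genes tested. All 5 markers of basophils and mast cells were called higher in untreated and treated Irf3/7-/- than in wild-type BMDCs. Over all genes tested, 129 of 11004 and 517 of 11209 were called higher there. The sums of these 5 markers were 164 and 251 FPKM, against 67.2 and 80.8 FPKM in wild-type BMDCs. B cell markers summed to 3.34 to 10.7 FPKM. The part of these lists in the members' differences was not tested.

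**Figure D5:**
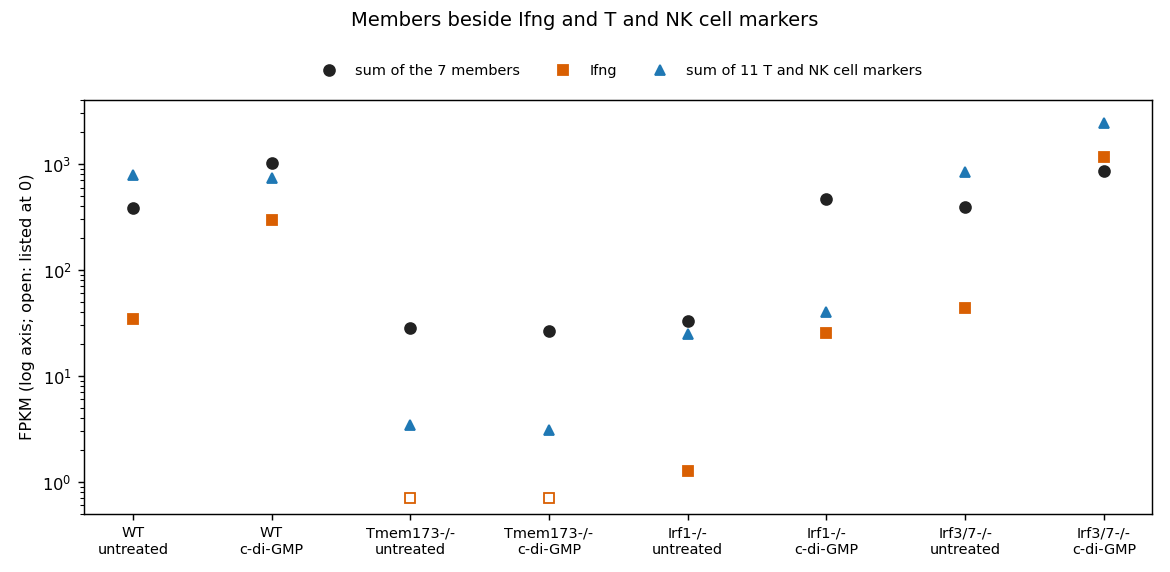
Summed FPKM of the 7 members (black), FPKM of Ifng (orange) and summed FPKM of 11 T and NK cell markers (blue) in the 8 conditions on a log axis, with values listed at 0 drawn open at the bottom. From untreated to treated Irf1-/- BMDCs the members go from 33.2 to 467 FPKM, Ifng from 1.26 to 25.5 FPKM and the markers from 24.7 to 40.3 FPKM. In Irf3/7-/- BMDCs the members go from 393 to 853 FPKM, Ifng from 44.0 to 1155 FPKM and the markers from 836 to 2428 FPKM.

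Of the interferon receptors and signalling genes, 4 of 14 were called higher in stimulated wild-type BMDCs, beside 10.5% of all genes tested: Irf7, Irf8, Stat2 and Ifnar2. In treated Irf3/7-/- BMDCs 1 of 14 genes, the targeted Irf7, was called lower than in wild-type BMDCs, beside 301 of all 11209 genes tested.

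The guanylate-binding proteins, a second family of interferon-inducible GTPases that act at pathogen vacuoles, had a similar course. Of 11 in the table, 10 were called higher in wild-type BMDCs given c-di-GMP, beside 10.5% of all genes tested. Their median log2 change was 1.94, and that of the IRG members 1.33. Gbp2 rose from 382 to 1036 FPKM, Gbp5 from 57.5 to 398 FPKM, Gbp3 from 31.1 to 175 FPKM and Gbp4 from 29.2 to 117 FPKM, and Gbp1, at 1.46 and 1.83 FPKM, was not called. All 11 in Tmem173-/- BMDCs given c-di-GMP were called lower than in wild-type BMDCs. The share over all genes there was 13.5%. In Irf1-/- BMDCs given c-di-GMP 10 of 11 were called lower, beside 4.91% of all genes, with a median log2 difference of -2.38 against -1.37 for the 7 IRG members, and the median of all genes was 0.02. The exception was Gbp5, whose 224 FPKM differed by -0.83 on the log2 scale. In treated Irf3/7-/- BMDCs 1 of 11, Gbp1, was called, in the lower direction, beside 7.3% of all genes in either direction.

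Of the 11 further IRG family genes in the table, 10 reached 1 FPKM in a wild-type condition, and Gm12250 and Gm4951 reached levels above those of Tgtp1 and Tgtp2 in treated wild-type BMDCs. Gm12250, known as Irgb10, had 40.6 and 80.1 FPKM in untreated and treated wild-type BMDCs, 0.223 and 12.5 FPKM in Irf1-/- BMDCs, and 36.1 and 59.7 FPKM in Irf3/7-/- BMDCs. The log2 change of Gm12250 in wild-type BMDCs, 0.98 with separate intervals, was under the 2-fold threshold and not called. Gm12250 in Tmem173-/- BMDCs was at 1.71 and 1.78 FPKM, above its untreated level in Irf1-/- BMDCs, with separate intervals. Gm12185, the gene with the paired motifs, was at 5.60 and 7.79 FPKM in wild-type and 0.161 and 0.615 FPKM in Irf1-/- BMDCs. Its log2 change of 0.47 in wild-type BMDCs, with overlapping intervals, was not called. Gm5431 rose from 3.32 to 20.8 FPKM in wild-type and from 1.69 to 13.4 FPKM in Irf1-/- BMDCs, and its treated intervals overlapped. The members on chromosome 11 lie in 2 groups: Irgm1, Tgtp1, Tgtp2 and Ifi47 between positions 48865245 and 49096987, with Gm12185 and Gm5431 among them, and Gm12250, Igtp and Irgm2 between 58183843 and 58222783.

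Iigp1 is the member on chromosome 18, from 60373616 to 60392634, and 3 further IRG genes lie near it. Gm4951 was at 69.7 FPKM in treated wild-type and 5.90 FPKM in treated Irf1-/- BMDCs, Gm4841 at 33.9 and 0.625 FPKM, and F830016B08Rik at 14.8 and 0.404 FPKM. All 3 were called lower, with log2 differences of -3.54, -5.55 and -4.89, beside 4.91% of all genes tested. In treated Irf3/7-/- BMDCs they were at 41.3, 14.0 and 7.18 FPKM, and Gm4841 and F830016B08Rik were called lower than in wild-type BMDCs, with log2 differences of -1.28 and -1.04. Iigp1 was not called there. Irgc1 and Irgq, which lie on chromosome 7, had between 2.80 and 7.26 FPKM in the 8 conditions, and 9930111J21Rik1 between 3.24 and 15.98 FPKM. Irgc1 was called higher with c-di-GMP in Irf1-/- BMDCs, with a log2 change of 1.24. Irgq was called lower in treated Tmem173-/- BMDCs, with a log2 difference of -1.11. 9930111J21Rik1 was called higher after stimulation of Irf1-/- BMDCs and of Irf3/7-/- BMDCs, and lower in both Tmem173-/- conditions than in wild-type BMDCs. Gm4070 is listed with values outside its own intervals and is not read here.

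Genes of the machinery that places IRG proteins on vacuoles were read from lists. Of the 11 genes of the ATG8 conjugation system, which directs the effectors to their target membrane, none was called with c-di-GMP in wild-type, Irf1-/- or Irf3/7-/- BMDCs. Over all genes tested, 10.5%, 9.67% and 10.2% were called higher there, and 1116 of 11201, 872 of 11164 and 866 of 11283 lower. A list of 11 genes would hold few calls in either direction at these shares. After c-di-GMP, Map1lc3a was called lower in Tmem173-/- than wild-type cells, beside 13.5% of all genes. Gabarapl1 was called lower in treated Irf1-/- than in treated Irf3/7-/- cells, beside 6.62% of all genes. It was at 39.3 FPKM in treated Irf1-/-, 79.4 FPKM in treated Irf3/7-/- and 42.8 FPKM in treated wild-type BMDCs. Gabarap was at 357 and 523 FPKM and Map1lc3b at 78.8 and 105 FPKM in untreated and treated wild-type BMDCs. Of 6 ubiquitin ligases and adaptors, 4 were called higher in wild-type BMDCs, beside 10.5% of all genes, namely Sqstm1 (138 to 459 FPKM), Tax1bp1 (66.9 to 180 FPKM), Traf6 (16.4 to 37.0 FPKM) and Trim21 (13.3 to 36.1 FPKM). The same 4 genes were called higher with c-di-GMP in Irf1-/- BMDCs and lower when treated Tmem173-/- cells were compared with wild-type ones, where 9.67% and 13.5% of all genes were called. Optn and Sqstm1 were called lower in treated Irf1-/- than in treated Irf3/7-/- cells, beside 6.62% of all genes. Optn was at 4.67 FPKM in treated Irf1-/-, 10.9 FPKM in treated Irf3/7-/- and 5.56 FPKM in treated wild-type BMDCs. Sqstm1 was at 344, 743 and 459 FPKM in the same order. Within Irf3/7-/- BMDCs, Optn, Sqstm1 and Traf6 were called higher with c-di-GMP, beside 10.2% of all genes. None of the 6 was called lower in treated Irf1-/- than in treated wild-type BMDCs.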

How the data were processed

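Stranded mRNA libraries of the BMDCs gave paired-end reads of 35 bases. The authors ran Cuffdiff (1.06 in the submitters' processing notes), merging the replicate samples per condition. They deposited a gene table of FPKM with the lower and upper bounds of their confidence intervals and a status. The interval covers counting error and the spread that the software estimated, and could not be checked against replicates. The sources used here do not give the aligner, the annotation or Cuffdiff's strand setting. The labels name mm9, but of 21522 symbols also in RefSeq GRCm38.p6, 21283 had an overlapping locus there and 7549 had the same start and end, so positions are given on GRCm38. A set of 3 value columns for another knockout was not used.

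Differences of log2(FPKM + 0.1) were computed over the whole table for 11 comparisons; no p-value was computed. The added 0.1 FPKM understates changes of low genes. The call rule was run on simulated data, with 4-fold changes planted in genes of at least 10 FPKM and noise drawn from the authors' intervals. Such data do not check changes near the fold threshold, low genes or the spread between cultures. The members and lists were chosen with earlier results of these data known. Named were all members, the further IRG genes with at least 1 FPKM, up to 4 called and 2 uncalled genes of each other list by treated wild-type FPKM, both interferons, the 10 genes of most similar profile, the targeted genes and genes overlapping a member. Gene lists had 1 symbol each that was not found for the IRG family, the guanylate-binding proteins and macrophages. Shared 35-base words were counted in GENCODE M21 transcripts, the longest protein-coding one per member, on both strands. Protein sequences were not analysed here. Other settings tried were 1 or 0.01 FPKM as pseudocount, no filter or a minimum of 5 FPKM, a fold threshold of 1.5 or 4, median centring, fold change alone, a longer ISRE and, added after seeing the data, Tgtp1 and Tgtp2 summed. Scripts ran under python 3.11.15 with pandas 2.3.3, numpy 2.4.6 and, for plots, matplotlib 3.10.9.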

Additional observations from a re-analysis of the deposited data

How the results depend on the processing

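No paired analysis was possible because the columns hold 1 combined value per condition and carry no replicate numbers; for the same reason no replicate could be left out. Over the 11 comparisons and 7 members, 614 of 638 values under the alternatives kept their call and none reversed. With a fold threshold of 4, 0 members were called for c-di-GMP within wild-type BMDCs, 0 within Irf3/7-/- BMDCs and 2 in treated Irf1-/- against treated wild-type BMDCs (Iigp1 and Tgtp1). With a threshold of 1.5, 5 members were called in treated Irf1-/- against treated Irf3/7-/- BMDCs, Igtp and Ifi47 being added, and Igtp was also called there after median centring. In Irf1-/- BMDCs the members' log2 changes had a median of 288% of those in wild-type BMDCs, which became 217% when 1 FPKM was added and 338% when 0.01 FPKM was added, since untreated Iigp1, Tgtp1 and Tgtp2 lay below 0.5 FPKM. In Tmem173-/- BMDCs the shares of Iigp1 and Tgtp1 moved with the pseudocount between 3.98% and 112% and between 6.15% and 117%, and are not interpretable. With the ISRE core extended by CT, 1 of the 6 members with a window, Irgm1, had a match in place of 5. With a minimum of 5 FPKM, Tgtp1 was no longer called within Irf1-/- BMDCs, and with a fold threshold of 1.5 Irgm2 was added in treated Irf1-/- against treated wild-type BMDCs. In Tmem173-/- BMDCs the intervals of Iigp1, Tgtp1 and Tgtp2 began at 0.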
